A study of Homo sapiens with 33 samples.

Results

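The 31 genes described here are established targets of the transcription factor p53, followed in HepG2 cells, a human hepatocellular carcinoma line. They were taken by symbol from a fixed list, and each matched 1 of the 78932 gene identifiers in the files, among 19179 identifiers of nuclear protein-coding genes. RNA had been sequenced in 12 libraries from cells sorted by cell-cycle stage and in 3 libraries from unsorted bulk cells. The 6 sorted fractions run from G1 through S1, S2, S3 and S4 to G2, with a library each for replicates 3 and 2, and the bulk libraries are replicates 1, 2 and 3. No drug, irradiation or genetic change is named for any group, and the labels give neither sorting gates, culture nor date. All libraries are labelled as nuclear RNA, but a total RNA kit for very small inputs made the sorted libraries and an mRNA kit the bulk ones, both of them stranded.

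p53 is held low by MDM2, a ubiquitin ligase whose own gene p53 switches on, so that the pair forms a negative feedback loop. When DNA is damaged or replication is disturbed, p53 accumulates and raises genes that stop the cycle, repair DNA, shift metabolism or start apoptosis. The best known of these is CDKN1A, which encodes p21, an inhibitor of cyclin-dependent kinases. p21 also lowers many cell-cycle genes through the DREAM repressor complex.

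p53 binds DNA as a tetramer to a pair of 10-base motifs, the p53 decamers. The RefSeq promoter table (GRCh38.p14, 250 bases before to 50 after the start, first entry of a gene) held 26 of the 31 genes, and was searched for the consensus decamer, which reads the same on both strands. An exact decamer stood in 4 of the 26 windows (15.4%) and in 939 of 15842 windows of all protein-coding genes (5.93%). A pair of decamers with a spacer of 0 to 13 bases and at most 2 mismatches over both stood in 2 of 26 (7.69%) and in 419 of 15842 (2.64%). AEN and FDXR hold these pairs and are shown because their levels are described below. The 150 bases before the start are printed 5′ to 3′ with the decamers in capitals, from chr15:88621190-88621339 on the plus strand for AEN, a start inside the annotated gene, and from chr17:74872995-74873144 on the minus strand for FDXR.
AEN: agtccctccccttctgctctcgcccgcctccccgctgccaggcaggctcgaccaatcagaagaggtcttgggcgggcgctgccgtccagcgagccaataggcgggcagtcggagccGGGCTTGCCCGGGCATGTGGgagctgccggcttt
FDXR: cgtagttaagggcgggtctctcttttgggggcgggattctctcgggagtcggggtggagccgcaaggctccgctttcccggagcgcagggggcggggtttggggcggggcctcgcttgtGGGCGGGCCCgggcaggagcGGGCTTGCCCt
The AEN decamers begin 34 and 24 bases before the start with no spacer, and those of FDXR begin 31 and 11 bases before it with a spacer of 10 bases. PLK2 and RPS27L each have a single exact decamer, in the windows chr5:58460087-58460236 and chr15:63157478-63157627, both on the minus strand. A match is a description of letters and not of binding, and many p53 sites lie outside such windows.
PLK2: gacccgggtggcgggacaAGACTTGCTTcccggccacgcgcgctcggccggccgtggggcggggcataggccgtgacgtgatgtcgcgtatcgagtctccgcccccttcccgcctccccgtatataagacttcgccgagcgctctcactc
RPS27L: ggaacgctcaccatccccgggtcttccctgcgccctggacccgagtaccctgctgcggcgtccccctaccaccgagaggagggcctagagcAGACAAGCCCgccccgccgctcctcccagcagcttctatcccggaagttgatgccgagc

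Levels are given as TPM (transcripts counted per gene length and scaled to a fixed total) after the nuclear protein-coding genes of each library had been rescaled to sum to 1000000, and differences as log2(TPM + 1). Recovered reads numbered between 6128974 and 18485178 in the sorted libraries and between 22340963 and 24423743 in bulk. S4 replicate 3 was the deepest sorted library, and no other held more than 9309579. Mitochondrially encoded mRNAs stand outside this scale. They took 4.30 to 20.6% of protein-coding TPM in sorted replicate 3, 20.3 to 30.2% in sorted replicate 2 and 15.9 to 16.8% in bulk.

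Most of the set differed between the replicate numbers, and no member passed the test between the fractions in the fit without a term for the replicate number. With the fraction as a term, 26 of the 30 genes tested were higher in replicate 3 than in replicate 2 and 2 were lower, where 33.7% of all tested genes were higher and 12.3% lower. CDKN1A was 3.50-fold, BTG2 3.43-fold and MDM2 2.42-fold higher in replicate 3, on the log2(TPM + 1) scale. Between the fractions, in the fit without a term for the replicate number, no gene of the set passed the threshold of 0.05 on the adjusted p. Neither did any other gene (0% of 13490). The share of the set higher in sorted than in bulk libraries, 10 of 30, was below that of all genes (55.1%).

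Levels in the set spanned a wide range. MDM2 averaged 637 ± 302 TPM over the sorted libraries (SD, n = 12), GDF15 563 ± 159 TPM and TNFRSF10B 430.2 ± 35.6 TPM, and these were the highest. At the low end TIGAR averaged 3.87 ± 1.78 TPM, FAS 10.4 ± 6.19 TPM and BBC3 16.7 ± 5.45 TPM. The level of FAS rests on a recovered gene length of 29313 bases, with 99 to 1335 reads in a sorted library. SESN2, a sestrin that restrains mTORC1 signalling, was listed at 0 in 13 of the 15 libraries and at 0.321 TPM in G2 replicate 3 and 0.619 TPM in G2 replicate 2. It was the 1 member that did not pass the filter of a mean of 1 TPM, so 30 of 31 were tested.

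Of the 6 genes of arrest and growth control, 5 were higher in replicate 3, against 33.7% of all tested genes, and 1 did not pass. CDKN1A had 204, 259, 441, 425, 284 and 241 TPM in G1, S1, S2, S3, S4 and G2 of replicate 3, against 58.0, 63.2, 132, 111, 83.0 and 78.6 TPM in the same fractions of replicate 2, and 188, 189 and 195 TPM in bulk. Every replicate 3 library lay above every replicate 2 library, and the bulk libraries lay between them. Both replicates were lowest in G1 and highest in S2, where CDKN1A stood at 2.16 times its G1 level in replicate 3 and 2.28 times in replicate 2. The difference between the replicates was 1.81 ± 0.07 (SE; limma adjusted p = 2.80e-08), the 18th largest of 13490 genes.

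BTG2, an antiproliferative protein that recruits the CCR4-NOT deadenylase, had 69.9, 96.9, 75.7, 107, 115 and 98.2 TPM in G1 to G2 of replicate 3, against 19.3 to 35.8 TPM in replicate 2 and 28.0 to 33.8 TPM in bulk. The replicates did not overlap, and bulk lay within the range of replicate 2. BTG2 rose by 1.78 ± 0.14 (limma adjusted p = 3.68e-06), the 20th largest difference. PLK2, a polo-like kinase with a role in centriole duplication, had 39.5 to 68.6 TPM in replicate 3, 17.3 to 27.1 TPM in replicate 2 and 9.72 to 11.1 TPM in bulk. PLK3, a stress-responsive polo-like kinase, had 87.5, 108, 189.6, 144, 122 and 128 TPM in G1 to G2 of replicate 3, against 46.0, 42.4, 70.4, 67.6, 79.8 and 62.1 TPM in replicate 2, and 13.1 to 15 TPM in bulk. Both kinases were higher in replicate 3, by 1.34 ± 0.14 for PLK2 and 1.06 ± 0.10 for PLK3, with no overlap.

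GADD45A, a growth arrest protein that binds PCNA, had 206 to 262 TPM in replicate 3, 94.7 to 183 TPM in replicate 2 and 73.8 to 78.8 TPM in bulk, a replicate difference of 0.65 ± 0.10. GDF15, a secreted stress cytokine of the TGF-β superfamily, had 327, 516, 846, 716, 454 and 439 TPM in G1, S1, S2, S3, S4 and G2 of replicate 3, against 481, 498, 824, 635, 514 and 508 TPM in replicate 2, and 233, 266 and 267 TPM in bulk. The replicates overlapped, and their difference of -0.11 ± 0.09 did not pass (limma adjusted p = 0.331). With median-ratio scaling it was called lower, at -0.31 (limma adjusted p = 0.0175). Its profile over the cycle had the same extremes as that of CDKN1A, lowest in G1 and highest in S2 in both replicates.

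**Figure D1:**
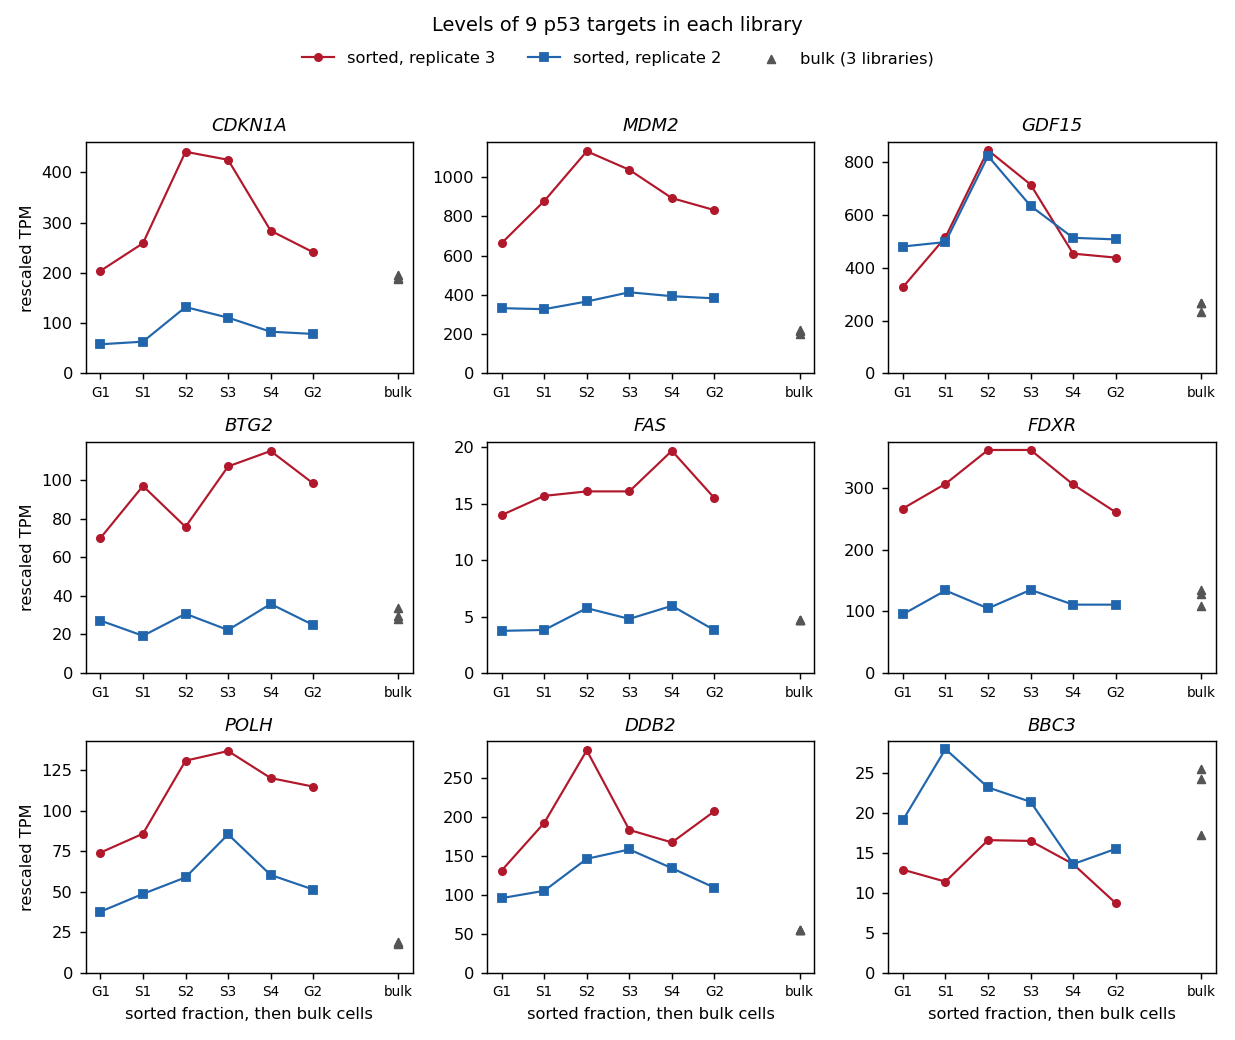
Rescaled TPM (linear axes from 0) of 9 p53 targets in each sorted fraction, with a line for replicate 3 and a line for replicate 2, and the 3 bulk libraries at the right. CDKN1A, MDM2, BTG2, FAS and FDXR lie higher in replicate 3 in every fraction, CDKN1A and GDF15 are highest in S2 in both replicates (441 and 132 TPM, 846 and 824 TPM), and BBC3 is nowhere higher in replicate 3.

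The 3 feedback genes were all higher in replicate 3, against 33.7% of all tested genes. MDM2 had 663, 877, 1130.3, 1036, 892 and 831 TPM in G1, S1, S2, S3, S4 and G2 of replicate 3, against 332, 327, 366, 413, 393 and 382 TPM in replicate 2, and 218, 221 and 201 TPM in bulk. Each sorted library was above bulk, and the replicates did not overlap. The replicate difference was 1.28 ± 0.08 (limma adjusted p = 9.23e-07). PPM1D, the phosphatase that dephosphorylates p53 and its activating kinases, had 44.2 to 57.5 TPM in replicate 3, 28.0 to 30.8 TPM in replicate 2 and 24.7 to 28.0 TPM in bulk. CCNG1, a cyclin that brings a phosphatase to MDM2, had 90.5 to 138 TPM in replicate 3, 62.1 to 91.5 TPM in replicate 2 and 449, 489 and 513 TPM in bulk. PPM1D rose by 0.74 ± 0.10 and CCNG1 by 0.67 ± 0.07 in replicate 3, and CCNG1 was far lower in every sorted library than in bulk.

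Among the 12 apoptosis genes 9 were higher in replicate 3 and 2 were lower, against 33.7% and 12.3% of all tested genes, and 1 did not pass. FAS, a death receptor, had 14, 15.7, 16.1, 16.1, 19.7 and 15.5 TPM in G1 to G2 of replicate 3, against 3.74, 3.82, 5.75, 4.8, 5.96 and 3.80 TPM in replicate 2, and 4.70, 4.70 and 4.74 TPM in bulk. The replicates stood well apart, and bulk lay inside the range of replicate 2. FAS rose by 1.62 ± 0.16 (limma adjusted p = 1.65e-05). TP53I3, a quinone oxidoreductase, had 170.4 to 242 TPM in replicate 3, 62.0 to 80.7 TPM in replicate 2 and 41.5 to 49.6 TPM in bulk, and rose by 1.49 ± 0.10. AEN, a nuclease of apoptotic DNA breakdown whose promoter is printed above, had 191, 157, 189.6, 208, 235 and 224 TPM in replicate 3, against 112, 82.2, 86.9, 126, 135 and 114 TPM in replicate 2, and 105 to 110.4 TPM in bulk. It rose by 0.88 ± 0.07, was highest in S4 and lowest in S1 in both replicates, and did not overlap between them.

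EDA2R, TRIAP1, PHLDA3, BAX and RPS27L had smaller rises. EDA2R, a receptor of the TNF receptor family, had 41.0 to 66.0 TPM in replicate 3 and 21.3 to 45.9 TPM in replicate 2, which overlapped, and rose by 0.85 ± 0.17. TRIAP1, a mitochondrial inhibitor of caspase activation, had 65.3 to 101 TPM in replicate 3, 27.7 to 59.3 TPM in replicate 2 and 201, 213 and 213 TPM in bulk, a rise of 0.75 ± 0.11 between replicates and a level below bulk in every sorted library. PHLDA3, a repressor of AKT signalling, rose by 0.64 ± 0.10, and BAX, which opens the outer mitochondrial membrane, by 0.54 ± 0.09. BAX had 178 to 249.7 TPM in replicate 3, 126 to 168 TPM in replicate 2 and 155 to 171 TPM in bulk. RPS27L, a ribosomal protein paralog whose reads could be divided with near-identical copies, rose by 0.41 ± 0.09, a call lost on the deposited TPM (limma adjusted p = 0.0605) and with median-ratio scaling (limma adjusted p = 0.0656).

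TNFRSF10B, the TRAIL receptor DR5, had 416 to 492 TPM in replicate 3, 379 to 444 TPM in replicate 2 and 279 to 285 TPM in bulk. Its difference of 0.16 ± 0.06 passed the test (limma adjusted p = 0.0386), but was -0.04 when libraries were scaled by median ratio. That call was also lost on the deposited TPM (limma adjusted p = 0.331), with no filter, without the trend, with no term for the fraction, and without any 1 library of the fractions other than S2 (limma adjusted p = 0.0646 to 0.117). BBC3 encodes PUMA, a BH3-only protein that releases BAX. It had 12.9, 11.4, 16.6, 16.5, 13.6 and 8.71 TPM in G1 to G2 of replicate 3, against 19.1, 28.0, 23.2, 21.4, 13.6 and 15.5 TPM in replicate 2, and 24.2, 17.3 and 25.5 TPM in bulk. The replicates overlapped, and no fraction was higher in replicate 3. BBC3 fell by 0.56 ± 0.16 on the log2 scale (limma adjusted p = 0.0158), and without either S1 library its difference was -0.42 and missed the threshold (limma adjusted p = 0.0533 and 0.0599). Its counts were small, with 25 to 100 reads in a sorted library. PERP, a desmosomal membrane protein, had 28.0, 42.8, 26.0, 27.8, 32 and 37.3 TPM in G1 to G2 of replicate 3, against 52.0, 46.3, 44.4, 36.8, 46.3 and 45.2 TPM in replicate 2, and 206, 218 and 219 TPM in bulk. It fell by 0.49 ± 0.12 (limma adjusted p = 0.00484), lower in 6 of 6 fractions. On the deposited TPM neither PERP nor BBC3 was called (limma adjusted p = 0.0980 for PERP and 0.120 for BBC3), nor with mitochondrially encoded mRNAs in the total (limma adjusted p = 0.107 for PERP and 0.126 for BBC3). Thus 0 members were lower in those fits, against 6.99% and 6.9% of all genes. TP53INP1, a stress protein of the nucleus and of autophagy, had 31.1 to 61.8 TPM in replicate 3, 28.3 to 55.2 TPM in replicate 2 and 79.0 to 86.3 TPM in bulk, and its replicate difference of 0.25 ± 0.11 did not pass (limma adjusted p = 0.0886).

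The 4 repair and nucleotide genes were all higher in replicate 3, against 33.7% of all tested genes. POLH, the polymerase that copies past ultraviolet lesions, had 74.2, 85.9, 131, 137, 120.3 and 115 TPM in G1 to G2 of replicate 3, against 37.7, 48.7, 58.9, 85.5, 60.4 and 51.4 TPM in replicate 2, and 18, 19 and 18.3 TPM in bulk. Both replicates were lowest in G1 and highest in S3, and all sorted libraries were above bulk. DDB2, which recognises damaged DNA in chromatin, had 131, 192, 285, 183, 167 and 207 TPM in replicate 3, against 95.6, 105, 146, 158, 134 and 109 TPM in replicate 2, and 54.1 to 55.3 TPM in bulk. It was lowest in G1 in both replicates, and the replicates overlapped. XPC, the damage sensor of nucleotide excision repair, had 236 to 287 TPM in replicate 3, 158 to 201 TPM in replicate 2 and 49.2 to 50.5 TPM in bulk. RRM2B, a p53-induced subunit of ribonucleotide reductase, had 37.1 to 52.5 TPM in replicate 3, 26.6 to 33.8 TPM in replicate 2 and 43.6 to 47.2 TPM in bulk. Replicate differences were 0.95 ± 0.08 for POLH, 0.62 ± 0.11 for DDB2, 0.44 ± 0.08 for XPC and 0.48 ± 0.10 for RRM2B.

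The 5 tested genes of metabolism, mitochondria and RNA were likewise all higher in replicate 3, against 33.7% of all tested genes. FDXR, the mitochondrial ferredoxin reductase whose promoter is printed above, had 267, 307, 362, 362, 306 and 261 TPM in G1 to G2 of replicate 3, against 95.4, 134, 105, 135, 111 and 111 TPM in replicate 2, and 135, 109 and 129 TPM in bulk. Replicate 3 was 2.29-fold to 3.45-fold above replicate 2, depending on the fraction, and bulk lay in about the range of replicate 2. The difference was 1.42 ± 0.08 (limma adjusted p = 3.32e-07). SESN1, a sestrin, had 44.0 to 59.5 TPM in replicate 3, 21.7 to 34.2 TPM in replicate 2 and 30.9 to 31.9 TPM in bulk. SPATA18, a protein of mitochondrial quality control, had 31.1 to 47.3 TPM in replicate 3, 13.6 to 29.5 TPM in replicate 2 and 20.5 to 22.8 TPM in bulk. ZMAT3, an RNA-binding protein of splicing and mRNA stability, had 49.3 to 58.0 TPM in replicate 3, 23.9 to 30.1 TPM in replicate 2 and 45.9 to 51.8 TPM in bulk. Their replicate differences were 0.91 ± 0.11 for SESN1, 1.01 ± 0.13 for SPATA18 and 0.94 ± 0.09 for ZMAT3. TIGAR, a fructose bisphosphatase that slows glycolysis, rose by 0.91 ± 0.24 from low counts, 11 to 81 reads in a sorted library.

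Over the whole set, 26 members were higher in replicate 3 in all 6 fractions, against 30.2% of tested genes. For 21 members the lowest replicate 3 library lay above the highest replicate 2 library, against 15.8% of tested genes. Adjusted p-values of the 26 higher members from limma ran between 2.80e-08 for CDKN1A and 0.0386 for TNFRSF10B. The median difference of the members was 0.80, beside 0.19 over all 13490 genes. Scaling by median ratio set the all-gene median to 0.01, and the share of higher among called genes then was 50.1%, beside 73.3%. With that scaling 24 members were higher and 3 lower, against 19.6% and 19.5% of genes, and the members' median was 0.61. The labels do not say whether libraries of the same number share a culture. If they do, each side is a single culture, and the p-values measure only the spread over its fractions.

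**Figure D2:**
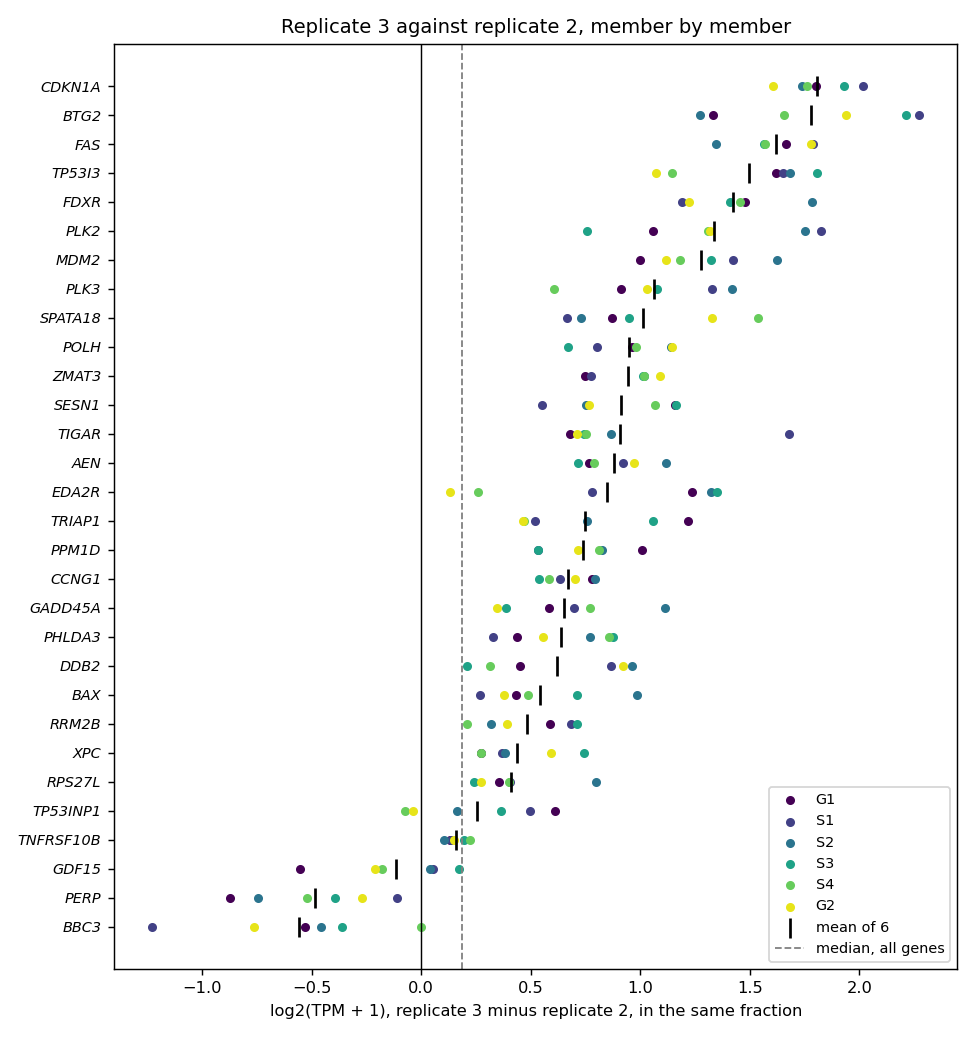
Difference in log2(TPM + 1), replicate 3 minus replicate 2, within each of the 6 fractions (coloured points) and on average (bar) for the 30 tested members, ordered by the average, with the median of all genes as a dashed line at 0.19. Led by CDKN1A at 1.81, 26 members average above 0.19, and PERP and BBC3 lie lowest at -0.49 and -0.56.

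Of 33 tested genes in a list of other p53 targets, 17 were higher in replicate 3 and 3 lower, against 33.7% and 12.3% of all genes, with a median difference of 0.39 beside 0.19. On the deposited TPM 10 of them were higher, against 18% of all genes. Among those with the highest levels, THBS1, an adhesive matrix glycoprotein, had 189 to 288 TPM in replicate 3 and 60.4 to 85.0 TPM in replicate 2, a rise of 1.77 ± 0.10. TRAF4, a signalling adaptor, rose by 0.49 ± 0.08 and FBXO22, an F-box protein, by 0.95 ± 0.09. DDIT4 (-0.77 ± 0.11) and IGFBP3 (-1.99 ± 0.31) were among the lower genes and are named after their values had been seen.

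Of 20 tested regulators and partners of p53, 11 were higher in replicate 3 and 3 lower, against 33.7% and 12.3% of all genes. Their median was 0.27, beside 0.19 over all genes. The 4 most abundant were RPL5 (-0.34 ± 0.07, lower), RPL11 (-0.15 ± 0.07, not called), USP7 (0.06 ± 0.07, not called) and PRMT5 (0.38 ± 0.06, higher). The first pair are ribosomal proteins that bind MDM2, USP7 removes ubiquitin from p53 and MDM2, and PRMT5 is an arginine methyltransferase. HIPK2, a kinase of p53, and TP73, a p53 relative, were the other lower genes, by -0.99 ± 0.07 and -0.44 ± 0.15, and were named after their values had been seen.

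Of 25 tested genes that p21 and DREAM are known to lower, 19 were higher in replicate 3 and 0 lower, against 33.7% and 12.3% of all genes. Their median was 0.67, beside 0.19 over all genes. Whether p21 acted on them in either replicate was not tested. TOP2A, a topoisomerase of mitosis, had 231 to 868 TPM over the fractions of replicate 3 and 166 to 734 TPM over those of replicate 2, a difference of 0.55 ± 0.12. AURKB (0.67 ± 0.21) and CCNB1 (0.65 ± 0.14), a mitotic kinase and cyclin, were also called higher, while PLK1 (0.36 ± 0.15), the main mitotic polo-like kinase, was not (limma adjusted p = 0.0589).

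Other measures moved with the replicate number too. Of 12 hepatocyte and HepG2 markers 10 were lower and 0 higher in replicate 3, against 12.3% and 33.7% of all genes. Their summed level was 30453 to 54286 TPM in replicate 3, 65731 to 86686 TPM in replicate 2 and 58423 to 59109 TPM in bulk. ALB, the serum albumin gene, fell by 1.08 ± 0.14 on the log2 scale and AFP, α-fetoprotein, by 1.04 ± 0.11, and no marker was at 0 in all sorted libraries. APOA1 (-0.71 ± 0.12) and APOA2 (-0.76 ± 0.09), apolipoproteins of high-density lipoprotein, were also lower. The 8 fibroblast markers summed to 11.9 to 17.5 TPM in replicate 3, 19.3 to 36.9 TPM in replicate 2 and 12.8 to 13.7 TPM in bulk. The 6 endothelial markers summed to 7.21 to 18.9 TPM in replicate 3, 12.1 to 25.8 TPM in replicate 2 and 0.755 to 1.16 TPM in bulk. The 8 leukocyte markers summed to 1210.1 to 1758 TPM in replicate 3 and 2593 to 3368 TPM in replicate 2, against 2348 to 2571 TPM in bulk, nearly all of it LYZ, while the defining PTPRC stayed at or under 0.324 TPM. The part of these measures, and of the mitochondrial share given above, in the difference of the p53 targets was not tested.

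**Figure D3:**
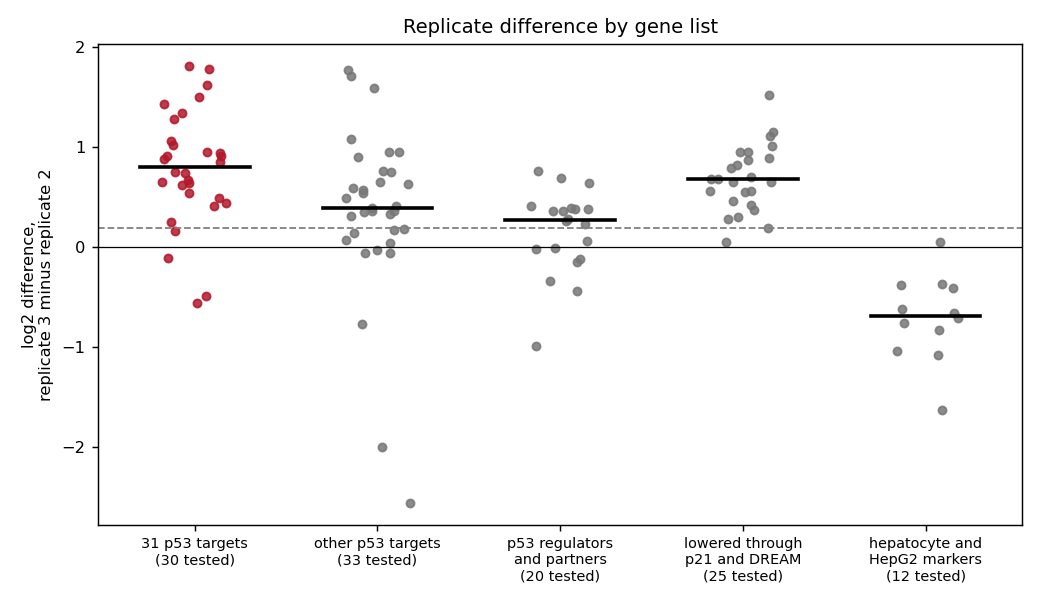
Difference in log2(TPM + 1), replicate 3 minus replicate 2, of each tested gene (point) in the 31 p53 targets and 4 further lists, with list medians (black bars), 0 (solid line) and the median of all genes (dashed, 0.19). Medians are 0.80 for the p53 targets, 0.39 for other targets, 0.27 for regulators, 0.67 for genes lowered through p21 and DREAM, and -0.69 for hepatocyte markers.

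Across the cell cycle, with no term for the replicate number, no member was called in G2 against G1, in S against G1 (S being the mean of its 4 fractions), in the slope over S1 to S4 or in the test of any difference among the fractions. With limma the number of all genes called was 0 in each, and 285, 553, 580 and 371 genes had an unadjusted p under 0.05, among them 0, 1, 1 and 1 members. The difference between the replicates stays in the spread of these tests. Fits with such a term, given at the end of the text, called members in all but G2 against G1. Values here are from the fits without it. In G2 against G1, CDKN1A differed by 0.33 ± 1.02, MDM2 by 0.26 ± 0.74, GDF15 by 0.25 ± 0.22, CCNG1 by 0.22 ± 0.41, BAX by -0.23 ± 0.36 and BBC3 by -0.40 ± 0.45. The members' median was 0.13, beside -0.02 over all genes, but -0.25 with G1 replicate 2 left out and -0.18 with G2 replicate 3 left out. The largest positive differences were those of POLH (0.53 ± 0.56), EDA2R (0.52 ± 0.58) and PLK2 (0.50 ± 0.80), and the most negative those of BBC3, TP53INP1 (-0.25 ± 0.28) and TIGAR (-0.23 ± 0.64).

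In S against G1 the members' median was 0.13, beside -0.04 over all genes, but -0.28 without G1 replicate 2. CDKN1A differed by 0.71 ± 0.81, POLH by 0.68 ± 0.44, MDM2 by 0.37 ± 0.58 and CCNG1 by 0.06 ± 0.32. GDF15, at 0.62 ± 0.18, had the lowest p among the members, but its limma adjusted p was 0.917. TIGAR (-0.45 ± 0.51), PHLDA3 (-0.09 ± 0.33) and PPM1D (-0.07 ± 0.37) had the most negative differences, and BAX stood at -0.01 ± 0.29 and BBC3 at 0.13 ± 0.35. Over S1 to S4 the steepest slopes per fraction were 0.23 ± 0.16 for AEN and -0.24 ± 0.09 for TP53INP1 (limma adjusted p = 0.999 for both). BTG2 (0.17 ± 0.33) and POLH (0.15 ± 0.18) followed on the rising side and SPATA18 (-0.23 ± 0.20) and BBC3 (-0.12 ± 0.14) on the falling side. Slopes of CDKN1A (0.06 ± 0.32), MDM2 (0.05 ± 0.23), BAX (0.07 ± 0.12), CCNG1 (0.01 ± 0.13) and GDF15 (-0.05 ± 0.07) lay near 0. TP53INP1 had 54.9, 61.8, 36.7 and 31.1 TPM in S1 to S4 of replicate 3 and 38.6, 55.2, 28.3 and 32.8 TPM in replicate 2, with its highest value in S2 in both.

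Some members had the same highest or lowest fraction in both replicates. The highest fraction was the same for 12 of the 30 tested members and the lowest for 10. The share over all tested genes was not computed, so these counts do not set the members apart from other genes. CDKN1A, GDF15, POLH, DDB2 and FAS were lowest in G1 in both, and SPATA18 was highest in S1 in both. For comparison, the genes lowered through p21 and DREAM, which include mitotic genes, had a median of 1.74 in G2 against G1, with 19 of 25 at an unadjusted p under 0.05 and 0 called.

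In sorted against bulk libraries, kit and sorting cannot be told apart. Of 30 members tested 10 were higher in the sorted libraries and 4 lower, against 55.1% and 16.5% of 13038 genes. The members' median was 0.48, beside 0.79 over all genes. The higher members included PLK3 at 2.53 ± 0.37, XPC at 2.10 ± 0.17, POLH at 2.01 ± 0.33 and PLK2 at 1.62 ± 0.47. DDB2 (1.46 ± 0.24), MDM2 (1.42 ± 0.43), TP53I3 (1.40 ± 0.51), GADD45A (1.27 ± 0.24), GDF15 (1.09 ± 0.12) and TNFRSF10B (0.61 ± 0.09) followed. PERP (-2.47 ± 0.20), CCNG1 (-2.35 ± 0.24), TRIAP1 (-1.84 ± 0.28) and TP53INP1 (-1.03 ± 0.15) were lower. The call of TP53I3 was lost without any 1 bulk library (limma adjusted p = 0.0634 to 0.0861) and with mitochondrially encoded mRNAs in the total (limma adjusted p = 0.0562).

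By role, the higher in sorted libraries were 3 of 4 repair genes, 4 of 6 arrest genes and 1 of 3 feedback genes. Apoptosis had 2 of 12 and the tested genes of metabolism, mitochondria and RNA 0 of 5, against 55.1% of all genes. The lower were 3 apoptosis genes and 1 feedback gene, against 16.5% of all genes. The roles were not tested against each other, and with median-ratio scaling the higher calls of PLK2 (limma adjusted p = 0.0635), GDF15 (limma adjusted p = 0.0721), MDM2 (limma adjusted p = 0.128), TNFRSF10B and TP53I3 were lost. CDKN1A (-0.27 ± 0.60), BBC3 (-0.44 ± 0.26) and BAX (0.11 ± 0.21) did not pass. For 11 members all sorted libraries lay above all bulk libraries (46.5% of genes) and for 4 all lay below (14.6% of genes). These directions depend on the scale. With median-ratio scaling 5 members were higher and 10 lower, against 36.2% and 33.8% of all genes. The members' median was then -0.26, and BAX (-0.64) and TNFRSF10B (-0.15) changed sign. The higher share of all calls was 51.7%, beside 77.0%. Of the deposited TPM these protein-coding genes took 11.2 to 15.5% in sorted libraries and 76.7 to 77.6% in bulk. On that scale 0 of 29 tested members were higher and 24 lower, against 23.1% and 57.8% of 17174 genes of all classes. The higher share of all calls was then 28.5%. PLK3, XPC, POLH, DDB2 and GADD45A were higher and PERP, CCNG1, TRIAP1 and TP53INP1 lower in both protein-coding scalings.

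**Figure D4:**
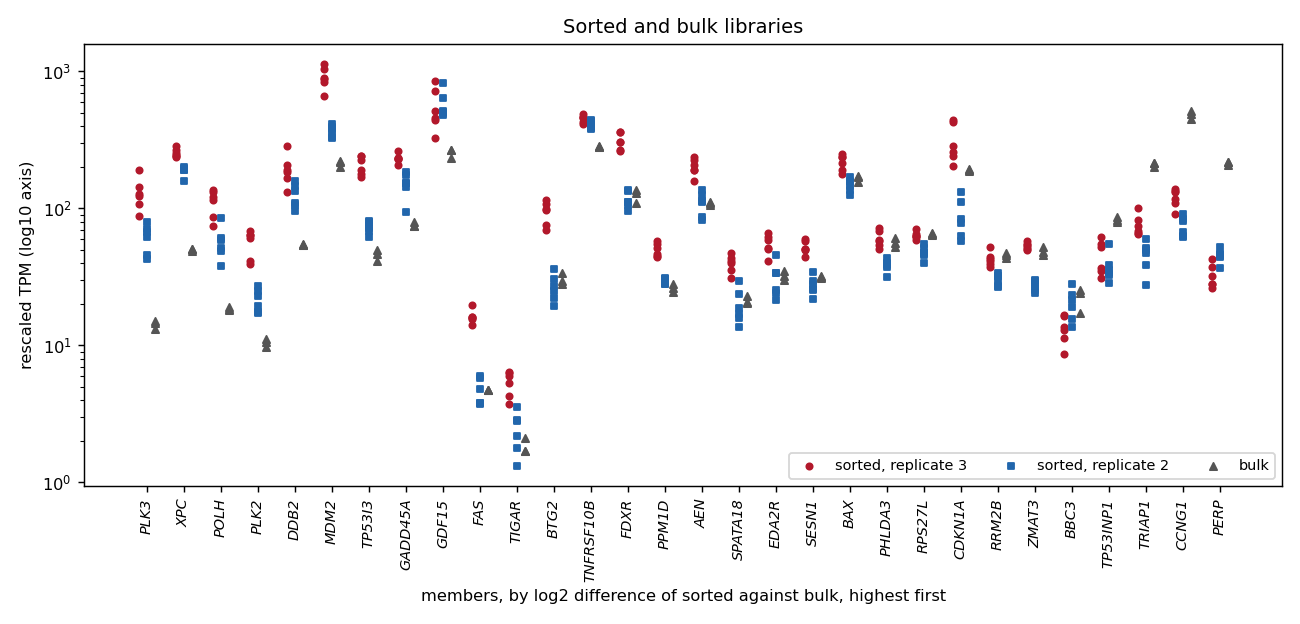
Rescaled TPM (log10 axis) of the 30 tested members in the 6 sorted libraries of replicate 3, the 6 of replicate 2 and the 3 bulk libraries, ordered by the difference of sorted against bulk. PLK3, at 42.4 to 189.6 TPM sorted and 13.1 to 15 TPM in bulk, stands at the left, and PERP, at 26.0 to 52.0 TPM sorted and 206 to 219 TPM in bulk, at the right.

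Neighbouring genes could share reads with some members. In RefSeq, 16 of the 31 members overlap another gene and 9 another protein-coding gene, among them FAS with ACTA2, POLH with GTPBP2 and MDM2 with CPM. Both kits keep the strand, but whether the counting used it was not given in the sources used here.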

How the data were processed

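RNA was measured in 15 HepG2 libraries, and 18 Repli-seq samples are not used here. The deposited values are log2(TPM + 1) for 78932 gene identifiers, since they sum to 1000000 after back-transformation. Per the submitters' processing notes, HISAT2, BWA, SAMtools, Trimmomatic and cutadapt were used with the build hg38. Which program counted genes was not given in the sources used here. All tests had been laid out for TPM and were kept.

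Nuclear protein-coding genes, matched by symbol to RefSeq, were rescaled to sum to 1000000. Whole reads were recovered from the steps of the values for all 50310 genes above 0 in at least 3 libraries, within 0.01 of a read, and the depths given are sums of these. Intervals of counting error alone would understate the spread. Replicates differed beyond sampling noise in every group, with a chi-square of at least 5.90 per degree of freedom.

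Tests were limma 3.58.1 with an intensity trend in R 4.3.3 on log2(TPM + 1), a scale that understates changes of low genes, in genes with a mean of at least 1 TPM. Benjamini-Hochberg adjustment ran over all genes tested, with a threshold of 0.05. A single fit of the 12 sorted libraries served the fractions, without a replicate term, and a fit for replicate 3 against replicate 2 with the fraction as a term. All 15 shared a fit for sorted against bulk. The code was tested on simulated data. Alternatives changed pseudocount, filter, scaling, trend, replicate term and libraries. The labels name no separate cultures, so p-values measure no more than the spread between libraries, part of which may be technical.

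Every member was accounted for. Differences were named for CDKN1A, MDM2, GDF15, BBC3, BAX and CCNG1, each called member and the 3 largest in either direction, and in other lists for the 4 with the highest levels. Members and lists were chosen with earlier results of these data known. Values of 2 listed genes outside the 31 are not reported here.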

Additional observations from a re-analysis of the deposited data

How the results depend on the processing

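Alternatives were compared by direction and side of the threshold. In replicate 3 against replicate 2 the count of members called stayed within 1.5 times of 28 under every alternative run, with 23 to 27 higher. Leaving out a library gave 25 or 26 higher. The share of all genes that were higher moved more. It was 18% on the deposited TPM, beside 23 of 29 members, and 54.4% with mitochondrially encoded mRNAs in the total, beside 27 of 30 members. Signs turned there for TNFRSF10B, -0.04 with median-ratio scaling and -0.04 with voom on recovered reads, and for GDF15, 0.15 with mitochondrially encoded mRNAs in the total. GDF15 was called lower with voom at -0.3 (limma adjusted p = 0.00263). The call of RRM2B was lost with voom, at 0.28 (limma adjusted p = 0.0554). In sorted against bulk, the deposited TPM over all gene classes gave 24 members called, 0 of them higher. Of all genes 23.1% were higher and 57.8% lower in that fit. The members' median there was -1.98, with GADD45A at -1.28, PLK2 at -0.73, GDF15 at -1.5, MDM2 at -1.16, BAX at -2.44, TNFRSF10B at -1.98, TP53I3 at -1.12, XPC at -0.46, DDB2 at -1.08 and POLH at -0.48. Median-ratio scaling gave 5 members higher in sorted against bulk, against 36.2% of all genes, with a median of -0.26, BAX at -0.64 and TNFRSF10B at -0.15. In the same comparison voom gave a median of -0.23, BAX at -0.61 and TNFRSF10B at -0.13. The deposited TPM is scaled to a total over all gene classes. Median-ratio scaling divides each library by a median of gene ratios, and voom used library sizes adjusted by such a median. The mitochondrial and voom fits were chosen after seeing the data.

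The labels give the sorted fractions the same 2 replicate numbers and no shared culture, so the fraction tests did not pair them. The test of replicate 3 against replicate 2 did treat the number as a factor shared by all fractions. Deviations of same-numbered libraries correlated at 0.347 to 0.441 between fractions over 13490 genes. With the replicate block, G2 against G1 had 40 genes called and 94 with voom as well, among them 0 members. S against G1 had 3 members (CDKN1A, GDF15 and POLH) and 184 genes with the block, and 6 members (PLK3, MDM2 and DDB2 besides) and 358 genes with voom and the block. The slope had 1 member (AEN) and 249 genes with the block and 2 members (TP53INP1 besides) and 824 genes with voom and the block. The test of any difference had 3 members and 173 genes with the block, and 8 members and 740 genes with voom and the block. Without the block, 1 gene was called in G2 against G1 on the deposited TPM and 1 with median-ratio scaling, 1 in S against G1 with median-ratio scaling, and 3 on the deposited TPM and 1 without the trend in the test of any difference.

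Signs turned among the uncalled fraction values. In S against G1 the deposited TPM gave a members' median of -0.03, CCNG1 -0.12 and BBC3 -0.03, and BAX was 0 without histone genes, 0.03 with median-ratio scaling, 0.04 with voom and 0.04 with voom and the block. In the slope the members' median was -0.01 with median-ratio scaling, -0.01 with voom and -0.01 with voom and the block, CCNG1 was -0.01, -0.01 and -0.02 in the same fits, and GDF15 was 0.02 with mitochondrially encoded mRNAs. Leaving out 1 library moved G2 against G1 between -0.25 and 0.58 for the members' median, -0.57 and 1.23 for CDKN1A, -0.16 and 1.16 for PLK2, -0.03 and 0.53 for GDF15, -0.29 and 0.82 for MDM2, -0.17 and 0.61 for CCNG1, -0.1 and 1.14 for EDA2R, -0.56 and 0.06 for TP53INP1, -0.04 and 1.1 for POLH, and -0.59 and 0.12 for TIGAR. It moved S against G1 between -0.28 and 0.44 for the median, -0.19 and 1.61 for CDKN1A, -0.13 and 0.86 for MDM2, -0.57 and 0.44 for PPM1D, -0.33 and 0.45 for CCNG1, -0.13 and 0.4 for BBC3, -0.22 and 0.21 for BAX, and -0.31 and 0.12 for PHLDA3, with 0 to 1 genes called. It moved the slope between -0.11 and 0.12 for the median, -0.24 and 0.37 for CDKN1A, -0.17 and 0.51 for BTG2, -0.17 and 0.26 for MDM2, -0.08 and 0.11 for CCNG1, -0.3 and 0.06 for BBC3, and 0 and 0.14 for BAX. In a fit that leaves out 1 library, the lone library of that fraction is assumed to vary like the other groups. Small counts limit TIGAR and BBC3. Whether the zeros of SESN2 come from the cells or from the quantification cannot be told from the files.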
